A study of Saccharomyces cerevisiae with 11 samples.

Results

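The open reading frames (ORFs) described here begin with AUG and lie on budding yeast transcripts for which the deposited rating table recognised no annotated coding sequence. They are the entries of the class "new" with start codon ATG, and there were 1973 of them among 192230 candidate ORFs. They fell on 219 genes. In 136 genes 1 of these ORFs began at the gene's own annotated start codon, and it is called the own-start ORF below. The other 1837 began elsewhere on the same transcripts. None of the 136 own-start ORFs ended at its gene's annotated stop codon (0 of 136), and none was marked in the table as having an annotated start (0 of 136). The first count follows from gene lengths that do not divide into whole codons, given below. The second goes with the class, so neither is a finding about these ORFs.

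The data came from ribosome profiling of Saccharomyces cerevisiae strain SK1, a background that sporulates efficiently. All 11 libraries were made from cells given 3 µM lactimidomycin (LTM) before harvest, and each was the only library of its group. Exponential vegetative cells were taken at an OD600 of 0.6 and saturated ones at 10. Cells in sporulation medium were taken at 0, 1.5, 3, 4.5, 6, 8, 10 and 22 h, and MATa/a cells, which carry mating type information of 1 kind only and do not enter meiosis, were taken at 4.5 h. The table holds a single set of values per ORF and 0 columns for single libraries. Conditions could therefore not be compared, no value has a replicate error, and the depth behind each value is unknown.

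Ribosome profiling sequences the stretches of RNA that ribosomes cover. LTM stops ribosomes that have just joined at a start codon, so footprints pile up there, while elongation inhibitors such as cycloheximide leave footprints along the whole reading frame. A ribosome that scans from the 5′ end normally begins at the first AUG it recognises, and it reads on in that frame until it meets a stop codon. A gain or loss of a single base moves the frame and usually brings a stop codon early. Short AUG ORFs in a leader, called upstream ORFs, can take ribosomes away from the main frame behind them.

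Each ORF carries a forest score from 0 to 1, which a random forest computed from 6 regression features of the LTM footprints and of a data set called CHX, whose cells and treatment the sources used here do not describe. An ORF is called rated below at a score above 0.5, the higher of the 2 cut-offs that the deposited notes give. The notes warn that no single cut-off suits all classes of ORF. LTM evidence is the deposited strength of support for the start codon from the LTM data, on a scale with no stated unit. The CHX stop value is the deposited regression value for all ORFs that end at a given stop codon. Both enter the score, so neither is independent of it. Intervals below treat ORFs as units and cover counting error only, although ORFs of 1 transcript share its reads.

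All 219 genes had in the SK1 annotation a length over their coding exons that is not a multiple of 3. Such lengths occurred in 586 of the 6707 genes of that annotation. Of these genes 150 were listed as verified, 43 as uncharacterized, 22 as dubious and 4, all within Ty retrotransposons, had no class. Of the 202 genes with a coding sequence in the S288C reference (RefSeq, assembly R64), 93 were 1 base shorter in SK1 than there, 16 were 1 base longer, 11 were 2 bases shorter and 4 were 2 bases longer. In 133 of the 202 the lengths differed by at most 4 bases. Only 9 of the 219 genes had more than 1 coding exon. REE1 and YLR256W-A had an annotated length of only 1 base, so positions before, inside and after the gene have little meaning there. In 23 genes over 10% of the 28-base windows occurred more than once in the S288C genome, copies within the same gene included. Reads from such windows cannot be placed with certainty.

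The early stop codons can be read from the reference. The following stretches are S288C coding sequence around the point where the SK1 own-start ORF ended, in 5 genes that were 1 base shorter in SK1. The capitals mark a stop codon that lies 1 base out of the frame of the S288C protein, at the place where the SK1 ORF stopped once the missing base is allowed for. FRA1 and TAO3 belong to the ORFs with the highest ratings, ADY2 to the sporulation genes, and PMA1 and RPL11A were chosen after their values were seen, because their products are abundant and well known. The stretches lie at chrXII:82560-82607 (plus strand, FRA1), chrIX:112556-112603 (minus, TAO3), chrIII:132929-132976 (minus, ADY2), chrVII:482396-482443 (minus, PMA1) and chrXVI:731469-731516 (minus, RPL11A) of R64.
FRA1: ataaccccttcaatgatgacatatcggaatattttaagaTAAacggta
TAO3: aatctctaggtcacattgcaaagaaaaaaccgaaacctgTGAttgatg
ADY2: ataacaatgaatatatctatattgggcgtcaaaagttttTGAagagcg
PMA1: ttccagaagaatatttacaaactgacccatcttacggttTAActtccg
RPL11A: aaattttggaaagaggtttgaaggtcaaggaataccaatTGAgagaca

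The other set to look at is that of rated AUG ORFs ahead of the annotated start. Of 157 such ORFs, 32 were short enough to print whole within 30 bases and read through to the same length in S288C. The 4 shown had the highest scores of these. The first capitals are the start codon and the last the stop codon. They lie at chrV:562688-562705 (minus strand, YER186C), chrX:128966-128992 (minus, SSY5), chrII:59561-59578 (minus, TEL1) and chrIV:1178168-1178194 (minus, ATP22) of R64.
YER186C: aaggaaATGaaagcaTAG
SSY5: ttttgcATGtacatagtactggtgTAA
TEL1: gatagaATGttttgcTAG
ATP22: actttaATGttcttattggcatgtTAA

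Of the 1973 AUG ORFs, 546 were rated (27.7%, exact 95% interval 25.7 to 29.7%), against 13.5% of all candidates in the table and 32.1% of all AUG candidates. The split by position was wide. The own-start ORFs were rated in 120 of 136 cases (88.2%, 81.6 to 93.1%), with a median score of 0.850 and a median LTM evidence of 4300. The other AUG ORFs were rated in 426 of 1837 cases (23.2%, 21.3 to 25.2%), with a median score of 0.348 and a median LTM evidence of 0.270. The odds of being rated were 24.8 times higher at the own start (95% interval 14.6 to 42.3, two-sided Fisher's exact test, adjusted p = 5.9e-53 by Benjamini-Hochberg over 9 comparisons). The size of this difference depended on the setting. With the own start set against only the AUG of strongest LTM evidence among the others of each gene, 120 of 136 and 156 of 218 were rated, and the odds ratio was 2.98 (1.64 to 5.43, Fisher's exact test, adjusted p = 0.000364). That setting picks high scores by construction, because LTM evidence is a part of the score. The odds ratio was 9.45 at a cut-off of 0.1, 9.86 at 0.9 and 38.99 for ORFs of at least 20 codons.

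**Figure D1:**
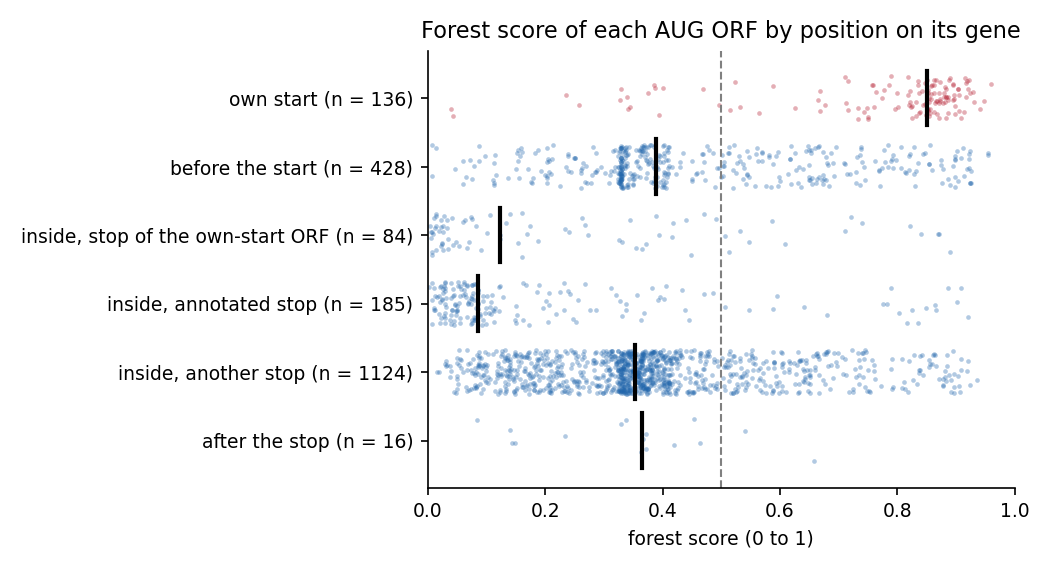
Forest score (x axis, 0 to 1) of every AUG ORF of the class new, 1 point per ORF, in rows by position on the gene. The median is a black bar and the cut-off of 0.5 a dashed line. The 136 own-start ORFs gather around a median of 0.850, while the other rows have medians below 0.5 and a tail above it.

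Ordinary annotated AUG ORFs were the closest class to the own-start ORFs. They were rated in 4492 of 4814 cases, or 93.3%, with a median LTM evidence of 2956. The own-start ORFs had lower odds of being rated (odds ratio 0.538, 0.315 to 0.917, Fisher's exact test, adjusted p = 0.0460), although their median LTM evidence was not below that of the annotated ORFs. The difference did not pass the test when dubious genes were left out (Fisher's exact test, odds ratio 0.646, adjusted p = 0.218), when only ORFs of at least 20 codons were counted (0.609, adjusted p = 0.173) or at a cut-off of 0.1 (0.462, adjusted p = 0.281). It passed at 0.8, where 66.2% of own-start and 79.3% of annotated ORFs were called (odds ratio 0.510, Fisher's exact test, adjusted p = 0.00127), and was larger at 0.9, with 13.2% and 47.8% (0.167, Fisher's exact test, adjusted p = 4.97e-16). Among verified genes the own start was rated in 98 of 105 cases (93.3%), among uncharacterized genes in 18 of 23 and among dubious genes in 4 of 8. Of the own-start ORFs of 100 codons or more, 101 of 108 were rated.

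The own start was usually the strongest start of its transcript. In 99 of the 136 genes it had the highest LTM evidence of all AUG ORFs there, and in 87 it was the highest of all candidates of the class, near-cognate start codons included. Over the 135 genes with another AUG ORF, LTM evidence at the own start was a median of 30.9 times that of the strongest other AUG, with quartiles of 0.692 and 3040. The spread between genes was wide, and in the 37 genes where another AUG was higher the ratio was below 1.

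**Figure D2:**
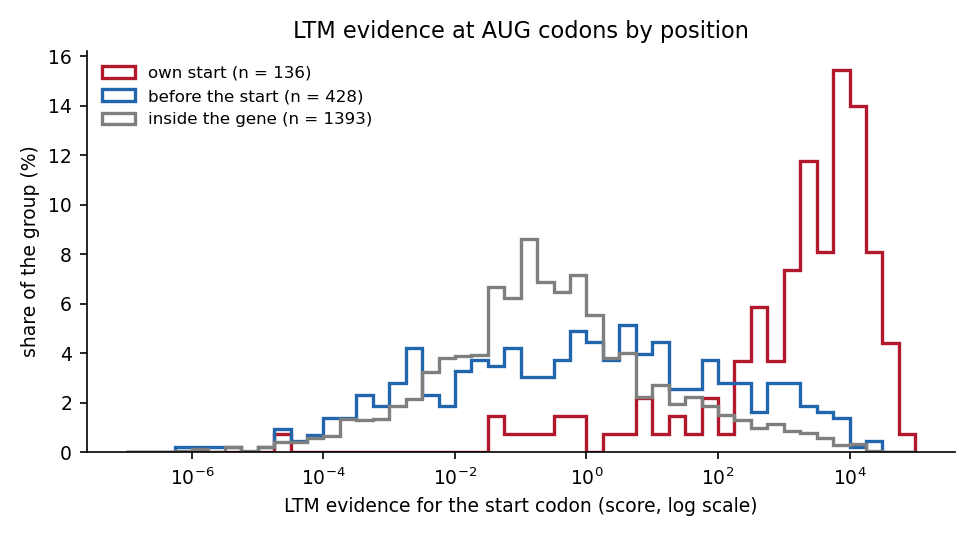
Share of ORFs (y axis, percent of the group) by LTM evidence for the start codon (x axis, a score on a log scale), for 136 own starts, 428 AUGs before the annotated start and 1393 AUGs inside the gene. Own starts had a median of 4300, against 0.947 for AUGs before the start and 0.227 for AUGs inside.

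The highest LTM evidence at an own start was 85290, in PRP16, an RNA helicase of the spliceosome, whose own-start ORF (SK1 chromosome 11, bases 608164 to 610917, plus strand) spanned 917 codons against 1071 in S288C. HPF1, a cell wall mannoprotein, followed with 46798 and ESL2 with 45219. The HPF1 ORF held 141 codons, against 967 in the S288C protein, and 23.6% of the windows of that gene occur more than once in S288C. HPF1 is annotated 875 bases longer in SK1, and no S288C stop codon was found where its ORF ended once that difference was allowed for. The ESL2 ORF held 233 codons of 1195. Strong start evidence thus occurred on ORFs that kept most of the protein and on ORFs that kept little of it.

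The 8 own-start ORFs with the highest deposited ratings had the same mixture of lengths. SPO22, also called ZIP4 and needed for chromosome synapsis and crossing over in meiosis, led with a score of 0.960 on an ORF of only 31 codons (SK1 chromosome 9, bases 228821 to 229005, minus strand), where the S288C protein has 975. It is 1 of the 9 genes with more than 1 coding exon. FRA1, a regulator of iron-responsive genes, had a score of 0.929 and 379 of 749 codons, and TAO3, which acts in cell morphogenesis, had 0.905 and 224 of 2376 codons. ECM33, a GPI-anchored cell wall protein, had a score of 0.917 and 429 codons, as many as the S288C protein. YGR130C, a component of the eisosome, had 812 of 816 codons. BXI1 with 298 codons and OSW1, an outer spore wall protein, with 280 were slightly longer than the S288C proteins of 297 and 278.

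FLO11, the flocculin needed for adhesion and filamentous growth, had the longest rated own-start ORF, with 2264 codons and a score of 0.915, against 1367 codons in S288C. Its coding region is built of repeats, and 38.1% of its windows recur in the S288C genome. STH1, the ATPase of the RSC chromatin remodelling complex, followed among rated own-start ORFs with 1345 of 1359 codons, and TEL1, the yeast relative of the ATM kinase, had 1130 of 2787. Nearest to the cut-off, MDM1 lay just inside at 0.515 and YCR024C-B just outside at 0.496.

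Set against the S288C proteins, most own-start ORFs held fewer codons. The shorter ones include PTH2, DPC13 and ASI3, where another AUG opened as many codons as the S288C protein has. Of 132 that could be compared, 108 were shorter, 15 were longer and 9 had exactly the same number of codons. The shorter ones held a median of 56.5% of the protein (quartiles 26.4 and 85.8%, range 2.40 to 99.5%), and 99 of the 108 were rated, as were 12 of the 15 longer and 8 of the 9 equal ones. The 9 of equal length were ERD2, the receptor that returns proteins to the endoplasmic reticulum, with 219 codons, ECM33 with 429, QRI7 with 407, ARN2, a siderophore transporter, with 620, TIM11, a subunit of the ATP synthase, with 96, SOM1 with 74, YOR131C with 218, and YLR407W and CNN1. Of these CNN1, a kinetochore protein with 361 codons, was the 1 that was not rated, at a score of 0.393. Within 5% of the protein's length there were 35 own-start ORFs.

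**Figure D3:**
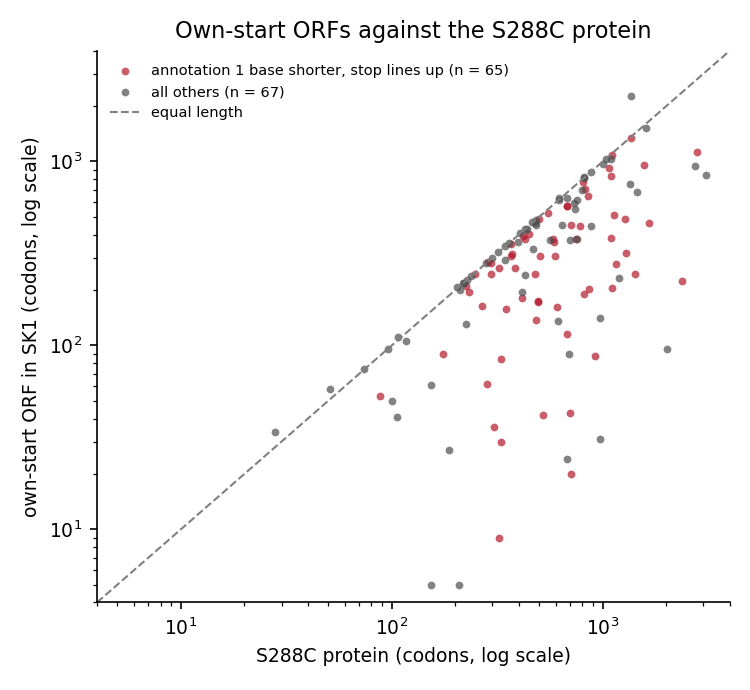
Codons of the own-start ORF in SK1 (y axis, log scale) against codons of the S288C protein (x axis, log scale) for 132 genes, with a dashed line of equal length. The 65 genes in red were 1 base shorter in SK1 and ended at an S288C stop codon of the next frame, and 108 of all 132 points lie below the line.

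In genes that were 1 base shorter in SK1, 65 of 74 own-start ORFs (87.8%) ended at a place where S288C has a stop codon 1 base later, out of the frame of its protein. In the same genes 3315 of the 49114 codons of that frame are stop codons (6.75%). An ORF that lost 1 base ahead of its stop ends at a stop codon of that frame by construction. The share that lined up is therefore no enrichment over the share of stop codons. The stop codons met were TGA in 25 genes, TAA in 23 and TAG in 17. Of the 9 that did not line up, 7 were as long as the S288C protein or longer, and the 2 shorter ones were MAL33 and TMA46. Of the 41 shorter own-start ORFs in genes with another length difference, 23 lined up after the same correction. Whether the missing bases differ between the strains or between the reference sequences cannot be told apart here, because the SK1 genome sequence was not used.

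PMA1, the proton pump of the plasma membrane and an essential gene, shows the pattern. Its own-start ORF (SK1 chromosome 7, bases 493724 to 493987, minus strand) had 87 of 918 codons and a score of 0.918, with LTM evidence of 33430. RPL11A, a protein of the large ribosomal subunit, had 90 of 174 codons and a score of 0.923, but 67.5% of its windows recur in S288C, where a near-identical paralog exists. ADY2, an acetate transporter named for its sporulation phenotype, had 62 of 283 codons and a score of 0.921, and IRA2, an inhibitor of Ras, had 840 of 3079 codons and a score of 0.873.

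ORFs that end at the gene's annotated stop codon are also listed, so CHX stop values there can be set beside those at the early stop. In 42 of the lined-up genes both stop codons carried a CHX stop value. Of these genes only AIM18 and INP2 had a rated ORF ending at the annotated stop (best scores 0.802 and 0.547). The best such score was 0.0731 in ADY2, 0.111 in PMA1 and 0.190 in VPS1. Some of these ORFs were short, the longest holding 4 codons in YER186C and 9 in LUG1. The value at the annotated stop was a median of 0.670 times that at the early stop (quartiles 0.389 and 1.25), it was the higher of the pair in 15 genes and the lower in 27, and in 28 the values were within 3-fold. Other stop codons inside the same genes had a median of 0.139 times the early stop's value (quartiles 0.0999 and 0.356), and in 2 of 42 genes that median was above the early stop's value. A median over several stops can hide a high one. In PDR10 a stop inside the gene had 5.48, against 0.545 at the early and 0.146 at the annotated stop. How many genes had such a stop was not counted. Across these 42 genes the values at the early and the annotated stop had a Spearman rho of 0.743, given as a description across genes, which share a data set and are not replicates. In the other 33 genes with both values the ratio was above 1 in 17 and at most 1 in 16, with quartiles of 0.325 and 2.10.

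ADY2 had the highest CHX stop values of these genes, 309.7 at the early stop and 315.1 at the annotated stop, against a median of 36.5 at its other stops. PMA1 had 3.41 at the early stop and 3.43 at the annotated stop, but its other stops were nearly as high at 3.25. VPS1, a dynamin-like GTPase of vacuolar sorting, had 6.28 and 5.11, and FRA1 had 8.31 and 5.20, with medians of 0.899 and 0.813 at their other stops. Single other stops of VPS1 were higher, up to 3.74 among rated ORFs. The annotated stop had 1.02 times the early stop's value in ADY2, 1.01 times in PMA1, 0.814 times in VPS1 and 0.626 times in FRA1. These genes do not stand for all 42, whose ratios had quartiles of 0.389 and 1.25. The early stop came after 9.48% of the PMA1 protein and after 450 of the 704 codons of VPS1.

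In some genes the values at the paired stops lay further apart. TAO3 had 4.22 at the early stop and 0.310 at the annotated stop, and SBE2, which acts in bud growth, had 0.466 and 5.05. FDC1 (YDR539W), a decarboxylase of aromatic acids, had 0.0990 and 0.000734. In ECM33, whose own-start ORF had as many codons as the S288C protein, the own stop had 5.62 and the annotated SK1 stop 0.00799. None of these single values has a replicate error, so a difference between a pair of stop codons in 1 gene could not be tested.

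**Figure D4:**
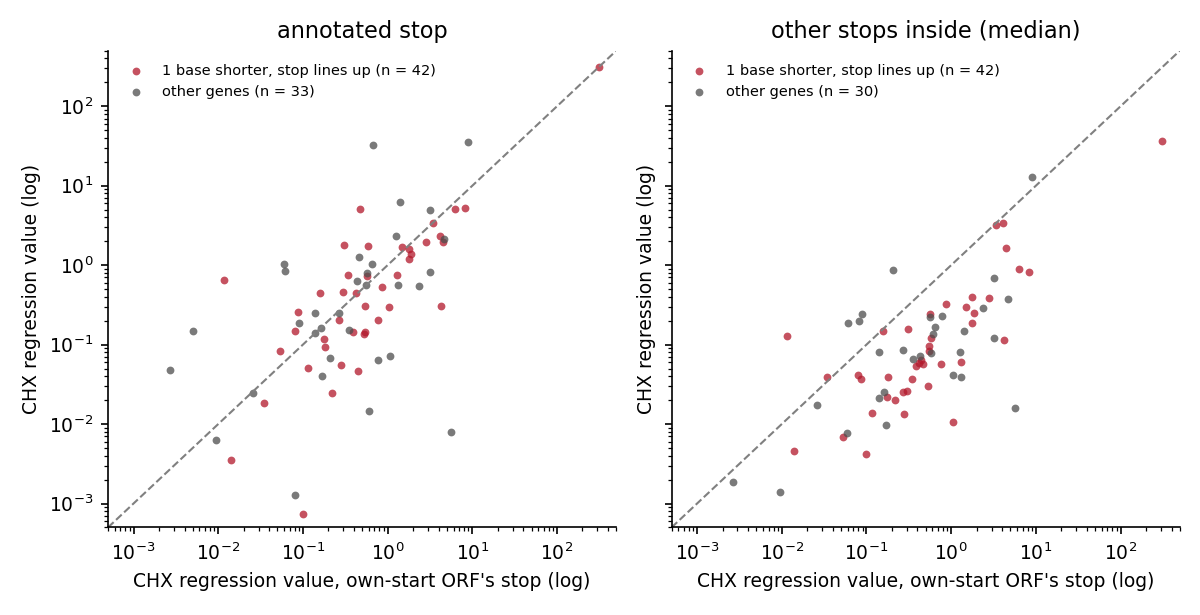
CHX regression value at the annotated stop codon (left, y axis, log scale) and the median at other stop codons inside the gene (right, y axis, log scale) against the value at the own-start ORF's stop codon (x axis, log scale), 1 point per gene, with a dashed line of equality. In the 42 lined-up genes, in red, the left panel scatters about the line with a median ratio of 0.670, and the right panel lies mostly below it with a median ratio of 0.139.

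Of the 16 own-start ORFs that were not rated, 13 lay in genes where another AUG had higher LTM evidence. In AIM18, which encodes a mitochondrial protein, the own-start ORF had 9 codons, LTM evidence of 0.0349 and a score of 0.342. An AUG 23 bases further on opened 313 codons to the annotated stop, with LTM evidence of 1141 and a score of 0.802, against 321 codons for the whole protein in S288C. In EMI1, a gene needed for the early meiotic programme, the own-start ORF had 27 codons and a score of 0.257, and an AUG 289 bases in opened 91 codons to the annotated stop with a score of 0.909. In DPC13 the own-start ORF had 5 codons, and an AUG 217 bases ahead of it opened 154 codons, the full S288C length, with a score of 0.922. The SK1 annotation of DPC13 is 217 bases shorter than that of S288C.

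Some unrated own-start ORFs were long. In FIG2, an adhesin made during mating, the own-start ORF had 1518 codons but LTM evidence of only 0.713, while an AUG 167 bases ahead of it with 3 codons had 3000 and a score of 0.895. TRS130, a subunit of a TRAPP complex of the Golgi, had 1082 of 1102 codons, LTM evidence of 0.639 and a score of 0.0429. SAP155, a partner of the phosphatase Sit4, had 971 of 1002 codons and a score of 0.0393, although its own AUG was the strongest of the gene at 2.30. GRR1, the F-box protein of glucose sensing, had 276 of 1151 codons and missed the cut-off at 0.468.

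Among the 1837 other AUG ORFs, those ahead of the annotated start were rated in 157 of 428 cases (36.7%, 32.1 to 41.4%), and those inside the gene in 267 of 1393 (19.2%, 17.1 to 21.3%). The odds ratio was 2.44 (1.93 to 3.10, Fisher's exact test, adjusted p = 1.72e-12). With 1 ORF per gene and position, the one with the strongest LTM evidence, the direction turned (odds ratio 0.849, Fisher's exact test, adjusted p = 0.590). That setting picks by a part of the score from unequal numbers, 428 ORFs of 162 genes and 1393 ORFs of 204 genes. Of the AUGs ahead of the start, 34 lay in a coding exon of another gene on the same strand, and 1 of these was rated, against 156 of the 394 others (39.6%).

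Rated AUGs were most frequent near the annotated start on both sides of it. Ahead of the start they made up 21 of 34 (61.8%) within 50 bases, 27 of 56 from 51 to 100 bases, 47 of 95 from 101 to 200 bases and 62 of 243 (25.5%) further out. Inside the gene they made up 81 of 151 (53.6%) in the first 100 bases, 66 of 225 (29.3%) from 101 to 300 bases, 60 of 437 (13.7%) from 301 to 1000 bases and 60 of 580 (10.3%) beyond. The exact intervals of the first and the last of these bins did not overlap on either side. Of the 16 AUGs after the annotated stop, 2 were rated.

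**Figure D5:**
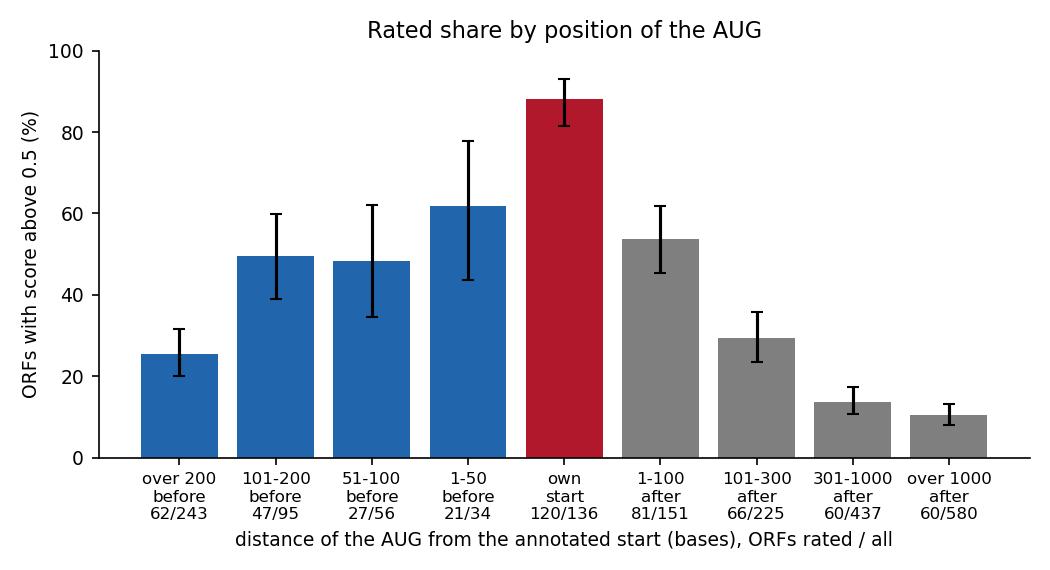
Share of AUG ORFs with a score above 0.5 (y axis, percent) by distance of the AUG from the gene's annotated start (x axis, bases), with exact 95% intervals as error bars and the counts of rated and all ORFs under each bar. The share was 88.2% at the own start and fell outwards to 25.5% ahead of it and 10.3% inside the gene.

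The AUGs inside genes could be divided by where their frames ended. Of 185 that ran to the annotated stop, 20 were rated (10.8%), of 84 that shared the stop of the own-start ORF 14 were rated (16.7%), and of 1124 that ended elsewhere 233 were rated (20.7%). Frame was also counted, from the annotated start. Given the gene lengths, an AUG of an unspliced gene that ran to the annotated stop was always out of that frame. The split is therefore not 1 between the frame of the protein and other frames. Within unspliced genes, AUGs in the frame of the annotated start were rated in 44 of 350 cases (12.6%) and those out of that frame in 212 of 1008 (21.0%), an odds ratio of 0.540 (0.380 to 0.766, Fisher's exact test, adjusted p = 0.000766). This did not hold for ORFs of at least 20 codons (0.774, Fisher's exact test, adjusted p = 0.464) and turned at a cut-off of 0.1 (1.13, adjusted p = 0.548). The deposited notes warn of many false positives among internal ORFs, from footprints of elongating ribosomes, and the part of these in the counts was not tested.

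The longest rated ORFs away from the own start ran for most of a protein. STH1 had an AUG 24 bases into the gene (SK1 chromosome 9, bases 126003 to 130016, plus strand) in frame with the own start, which opened 1337 codons to the same stop. Its LTM evidence was 5339 and its score 0.840, against 2283 and 0.733 at the own start 8 codons earlier. RFX1, a repressor of DNA damage genes, had an AUG 118 bases in that opened 771 codons to the annotated stop with a score of 0.588. INP2 encodes the peroxisomal receptor for the motor that carries peroxisomes to the bud. It had an AUG 56 bases in that opened 686 codons to the annotated stop. That AUG had a score of 0.547 and LTM evidence of 48.9972. The own-start ORF of INP2 had only 20 codons but the stronger start, with a score of 0.853 and LTM evidence of 13992.5.

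RSM23, a protein of the small mitochondrial ribosomal subunit, chosen after its values were seen, had an AUG 122 bases in with 447 codons to the annotated stop and a score of 0.886. In 4 genes an AUG other than the own start opened exactly as many codons as the S288C protein has. These were DPC13 and LTO1, which acts in ribosome maturation and had 162 codons from an AUG 107 bases in at a score of 0.680, both rated, and PTH2 with 208 codons at 0.0519 and ASI3 with 676 codons at 0.384, both not rated. In each gene the AUG's distance from the SK1 start equalled the difference in gene length from S288C. It lay 217 bases ahead in DPC13, 22 ahead in ASI3, 107 in for LTO1 and 17 in for PTH2. These AUGs thus lay as far from the annotated stop as the S288C start does, and the SK1 annotated start lay elsewhere.

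Short ORFs made up most of the remainder. The other AUG ORFs had a median of 15 codons, and the rated share was 86 of 299 (28.8%) at 1 to 5 codons, 214 of 834 (25.7%) at 6 to 19, 79 of 415 at 20 to 49, 18 of 107 (16.8%) at 50 to 99 and 29 of 182 (15.9%) at 100 or more. Ahead of the annotated start, ORFs of 1 to 5 codons were rated in 30 of 60 cases and those of 6 to 19 codons in 87 of 210 (41.4%).

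YER186C, an uncharacterized gene, had the highest rating of the AUG ORFs away from the own start, on an AUG 74 bases ahead of its start with 3 codons, a score of 0.954 and LTM evidence of 5650. Another of its AUGs, 458 bases ahead with 8 codons, lay just outside the cut-off at 0.499, and an AUG of YAL065C lay just inside at 0.5004. RPL16A, a protein of the large ribosomal subunit, had an AUG 3 bases ahead of its annotated start and in frame with it, with 16 codons and a score of 0.954. That gene has 2 coding exons, and the ORF spanned bases 107104 to 107439 of SK1 chromosome 9, more than 16 codons take. S288C has no ATG at the same distance from the RPL16A start. RTC1, a subunit of the SEA complex at the vacuole, had 9 codons from 57 bases ahead at 0.924, DCV1 had 6 codons from 93 bases ahead at 0.924, and YOR053W had 4 codons from 188 bases ahead at 0.901.

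ATP22, which activates translation of a mitochondrial ATP synthase subunit, had a 6-codon ORF 14 bases ahead of its start with LTM evidence of 29900 and a score of 0.914. CTS1, the endochitinase of cell separation, had a 21-codon ORF 393 bases ahead with LTM evidence of 22794 and a score of 0.819. SSY5, a protease of amino acid sensing, had a 6-codon ORF 34 bases ahead with LTM evidence of 4431 and a score of 0.925. TEL1 had a 3-codon ORF 190 bases ahead with LTM evidence of 5314 and a score of 0.921, above the 707 and 0.832 of its own start. In 45 genes, a rated own start stood together with at least 1 rated AUG ORF ahead of it.

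The strongest LTM evidence of an AUG away from the own start was 31498, in GAL10, an enzyme of galactose use, 1853 bases into the gene on an ORF of 2 codons with a score of 0.884. The only gene of a Ty element among the 8 highest-rated was YAR010C, with an AUG 205 bases in, 21 codons and a score of 0.921. All of its 28-base windows recur in the genome (100%), so its reads could come from other copies.

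Against other classes, the 1837 other AUG ORFs were rated more often than the 8568 near-cognate ORFs of the same transcripts, of which 796 were rated (9.29%), with an odds ratio of 2.95 (2.59 to 3.36, Fisher's exact test, adjusted p = 2.18e-53). With 1 ORF per gene, the one of strongest LTM evidence, the odds ratio was 1.03 (Fisher's exact test, adjusted p = 0.916). They were rated less often than AUG upstream ORFs of ordinary genes, at 29.3% (odds ratio 0.727, 0.646 to 0.818, Fisher's exact test, adjusted p = 2.09e-07), and this turned with 1 ORF per gene (3.31, adjusted p = 1.27e-15). At a cut-off of 0.1 the odds ratio against upstream ORFs was 0.0417 (87.6% against 99.4%), and at 0.8 and 0.9 it did not pass the test (0.847 and 0.855). Against AUG internal ORFs, at 23.0%, the odds ratio was 1.01 with an interval of 0.903 to 1.13 (Fisher's exact test, adjusted p = 0.839). It was 0.312 at a cut-off of 0.1 (Fisher's exact test, adjusted p = 1.04e-39) and 2.15 with 1 ORF per gene (Fisher's exact test, adjusted p = 6.38e-07), so its direction and call depended on the setting. AUG downstream ORFs were rated in 9 of 101 cases, and the odds ratio was 3.09 (1.54 to 6.17, Fisher's exact test, adjusted p = 0.000766), which turned at a cut-off of 0.1 (0.217, adjusted p = 0.00344). The setting of 1 ORF per gene picks by LTM evidence, a part of the score, from unlike numbers of candidates. The 1837 other AUG ORFs lay on 218 genes and the 8568 near-cognate ones on 221. The 8211 upstream ORFs lay on 3619 genes and the 18615 internal ones on 4636. Values of that setting thus compare maxima over unequal numbers.

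The cut-off moved the counts strongly. At 0.1 there were 1744 members, 134 of them own-start, against 81.6% of all candidates. At 0.8 there were 200, of which 90 were own-start (66.2% of the 136) and 110 were not (5.99% of the 1837), against 3.93% of all candidates. At 0.9 there were 46, of which 18 were own-start, against 1.62%. At each of these cut-offs the rated share was higher at the own start than elsewhere.

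An A at position -3, counted back from the A of the AUG, is favoured at yeast start codons. It could be read in S288C for 1105 of the 1973 AUGs (56.0%), those whose distance from the annotated start gave an ATG there too. With A at -3, 159 of 418 were rated (38.0%), and with another base 230 of 687 (33.5%), an odds ratio of 1.22 that did not pass the test (0.947 to 1.57, Fisher's exact test, adjusted p = 0.152). At a cut-off of 0.8 it passed (1.61, Fisher's exact test, adjusted p = 0.0162), while at 0.1 and with 1 ORF per gene the direction turned without passing (0.769, adjusted p = 0.281, and 0.963, adjusted p = 0.916). Own starts had A there in 69 of 132 cases (52.3%) and the other AUGs in 349 of 973 (35.9%). Among own starts 61 of 69 with A and 58 of 63 without were rated (88.4 and 92.1%), and among the other AUGs 98 of 349 and 172 of 624 (28.1 and 27.6%).

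Start contexts from S288C are given for 3 of the named own starts with different bases at -3. The capitals mark that base and the ATG. They lie at chrIX:225940-225966 (minus strand, SPO22), chrXI:599845-599871 (plus, PRP16) and chrIX:113223-113249 (minus, TAO3) of R64. Their scores were 0.960, 0.889 and 0.905.
SPO22: caacaagttTcaATGtcagaccacaac
PRP16: aatacctctGgtATGggtcattcgggg
TAO3: ttatacatcAaaATGgcctcgagattt

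Lists of genes known for their biology are given beside all genes, of which 219 of 6707 (3.27%) were on these transcripts, and beside all 1973 AUG ORFs, of which 27.7% were rated. Of 51 meiosis and sporulation genes, 3 were present (5.88%), SPO22, ADY2 and OSW1, with 27 AUG ORFs of which 9 were rated (33.3%), including all 3 own starts. Their median score was 0.375, against 0.359 for all 1973. Of 15 flocculin and cell wall repeat genes, 4 were present (26.7%), FLO11, FLO9, HPF1 and HSP150, with 42 AUG ORFs, 15 rated (35.7%) and a median score of 0.362. FLO9 had its best ORF 980 bases in, with 23 codons and a score of 0.892, and HSP150, a heat shock mannoprotein, had one 88 bases ahead of its start with 13 codons and 0.875. Of 6 genes known to be broken in some strains, AQY1, a water channel, and HAP1, a haem-responsive activator, were present (33.3%) with 14 AUG ORFs and 0 rated, a median score of 0.321. Genes with programmed frameshifts, genes with forms from more than 1 start, mitochondrially encoded genes, noncoding RNAs and HAC1 contributed 0 ORFs.

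Taken by gene, 204 of the 219 had at least 1 rated AUG ORF, with a median of 2 and a maximum of 11, from between 1 and 44 candidates. The maximum was in DOP1, a large protein of Golgi traffic, where the 11 rated ORFs had 3 to 20 codons, 10 of them inside the gene. Their scores ran from 0.512 to 0.753 and their LTM evidence from 1.63 to 62.8, far under the 4300 that was the median at own starts.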

How the data were processed

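The submitters' processing notes name bcl2fastq 2.17, CASAVA and Bowtie2, with no settings stated. Per the notes deposited with the table, the authors' forest score and its adjusted rating, the LTM evidence score and the CHX regression score hold 1 value per ORF. The deposited fraction of each ORF relative to the strongest ORF of its stop codon entered no result. What the name ending "nosat" means and which libraries entered are not given.

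ORFs were located on the deposited SK1 annotation, counted from 1. S288C (RefSeq R64) served for names, protein lengths and sequences. SK1 coordinates were never converted, and an S288C codon was found by its distance from the same gene's start. An early stop was said to line up where that codon, moved by the difference in gene length, was a stop codon. Rated counts were compared by two-sided Fisher's exact tests, with odds ratios on normal-approximation 95% intervals and Benjamini-Hochberg adjustment over 9 comparisons at 0.05. Shares have exact Clopper-Pearson intervals. The code was tested on simulated data. Tools were Python 3.11.15, pandas 2.3.3, numpy 2.4.6 and scipy 1.17.1.

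Named ORFs are the 8 highest-rated, 3 longest rated and 3 of strongest LTM evidence among own-start and among other ORFs, the 3 longest unrated own-start ORFs, list members, and those next to the cut-off. Other genes were named after their values were seen. The members, lists and tests were chosen with earlier results of these data known.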

Additional observations from a re-analysis of the deposited data

How the results depend on the processing

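Values are odds ratios. The comparison of own-start with other AUG ORFs kept its direction and passed the test under each alternative run, but its value moved from 24.8 to 2.98 with 1 ORF per gene, 9.45 at a cut-off of 0.1, 30.7 at 0.8, 9.86 at 0.9, 38.99 from 20 codons up and 33.5 without dubious genes. At a cut-off of 0.1 the values were 0.462 for own-start against annotated ORFs, 0.312 for other AUG ORFs against internal and 0.217 against downstream ones, 1.13 for in-frame against out-of-frame and 0.769 for A at -3. At 0.8 they were 0.847 against upstream, 3.15 against downstream, 0.552 for frame and 1.61 for A at -3. At 0.9 they were 0.855, 1.55 and 0.260 for upstream, downstream and frame. With 1 ORF per gene they were 1.03 against near-cognate, 3.31 against upstream and 2.15 against internal ORFs, 0.849 for before against inside and 0.963 for A at -3. From 20 codons up they were 0.609 against annotated, 0.840 against upstream, 0.799 against internal, 3.05 against downstream and 0.774 for frame. Without dubious genes they were 0.646 against annotated and 0.974 against internal ORFs. The cause of these changes was not tested. The setting of 1 ORF per gene takes the highest LTM evidence, a part of the score, from unequal numbers of candidates per gene. Counting ORFs within 5% of the protein's length as whole moved that count from 9 to 35. For 40 other pairs of result and setting, neither the direction nor the side of the threshold changed. 2 alternatives, leaving out repeated genes and matching starts from either end of the gene, were added after seeing the data. No library could be left out, since the table is 1 set of values. No paired analysis was possible because the table gives 1 set of values over all libraries. Depth is unknown, so no limit of detection can be given.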

Other observations

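In 83 of the 219 genes no AUG ORF began at the annotated start, and in 9 of these 83 one began within 30 bases of it. AUG ORFs on transcripts whose family has an annotated coding sequence on another transcript were rated in 211 of 812 cases (26.0%). AUG truncations of ordinary genes, which are also in-frame internal starts, were rated in 461 of 4466 (10.3%). Among AUGs ahead of the start, 7 of the 41 that lay in a coding exon of a gene on the opposite strand were rated (17.1%).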
